A study of Mus musculus with 12 samples.

Results

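The genes described here encode the superoxide-producing NADPH oxidase of phagocytes and the enzymes around it that make nitric oxide, use arginine or remove superoxide. The set was defined by gene symbol and holds 9 genes: Cybb, Cyba, Ncf1, Ncf4, Rac2, Nox4, Nos2, Arg1 and Sod3. All 9 were found among the 49315 genes of the count table, each on 1 row, and all 9 were among the 18702 genes that passed the filter on low counts. They were followed in epididymal white adipose tissue (eWAT; the sample labels say white adipose) of 12 male mice, 3 per group with 1 RNA-seq library per mouse. The flox groups carried miR-181a2b2flox/flox, a locus flanked by recombination sites but intact, and the KO groups were miR-181a2b2-/- and lacked the microRNAs Mir181a-2 and Mir181b-2 in every tissue, so no difference can be assigned to deletion in adipose cells alone. Every mouse was kept on a 60% fat diet for 12 weeks, and within each genotype mice received either vehicle or methotrexate (MTX) at 1 mg/kg, injected into the peritoneum each week. The ages of the mice were not given in the sources used here. The comparisons address 2 questions of the study, whether loss of the microRNA locus alters the adipose tissue of mice with diet-induced obesity, and whether MTX acts on that tissue differently when the locus is missing.

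The phagocyte oxidase sits in the membrane of macrophages and neutrophils as a catalytic subunit (the product of Cybb) stabilised by a partner (Cyba). On activation, subunits from the cytosol, among them those encoded by Ncf1 and Ncf4, and the small GTPase Rac2 join it, and the assembled enzyme passes electrons from NADPH to oxygen to form superoxide. Nox4 is a relative of Cybb that is active without the cytosolic subunits and releases mainly hydrogen peroxide. Nos2, the inducible nitric oxide synthase, and Arg1, arginase, compete for arginine in macrophages, and Sod3 is the dismutase secreted into the extracellular space. In obesity macrophages accumulate in white adipose tissue, which is why these genes are commonly read there as signs of inflammatory cells.

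The microRNAs of the deleted locus are shown because the comparison of genotypes rests on their absence. Capitals mark the seed, bases 2 to 8, which both share. Sequences are from RefSeq on GRCm38.p6, plus strand, and Mir181a-2 lies at chr2:38852741-38852763 and Mir181b-2 at chr2:38853845-38853868.
mmu-miR-181a-5p: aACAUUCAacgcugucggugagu
mmu-miR-181b-5p: aACAUUCAuugcugucgguggguu
The count table could not show the deletion itself, since the precursor of Mir181b-2 had 0 counts in all 12 libraries and that of Mir181a-2 was at 0 in 11 libraries with at most 2 counts in the other. The letters that pair with this seed, TGAATGT or GAATGTA (the second ends opposite the first base of the microRNA, and the pair overlaps when both are present), were searched on the sense strand of the 3' UTR of the longest complete coding transcript. Of the 9 genes, only Cybb held a match, at base 766 of its 3' UTR (GRCm38, chrX:9437437-9437458, minus strand, shown with the matching letters in capitals).
Cybb match: cataatgGAATGTAtggccaga
The same letters occurred in 22.2% of the 15349 genes searched in this way. A match is a description of letters and was not tested as a binding site.

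Among the promoters, 4 of the 9 genes (Cybb, Cyba, Ncf1 and Nox4) had an entry in the RefSeq table, each 300 bases long with 250 before and 50 after the start. They were searched on both strands for GAGGAA, the core letters bound by the myeloid factor PU.1. Only Cybb held it, as TTCCTC on the coding strand beginning 9 bases after the start, and 28.3% of the 32851 promoters in the table held it on either strand. The promoters of Cybb and Nox4 are shown because these related oxidases moved together in the tissue. Both are written along the coding strand on GRCm38.p6, that of Cybb from chrX:9469275-9469574 (minus strand) and that of Nox4 from chr7:87246399-87246698 (plus strand), with the motif in capitals.
Cybb promoter: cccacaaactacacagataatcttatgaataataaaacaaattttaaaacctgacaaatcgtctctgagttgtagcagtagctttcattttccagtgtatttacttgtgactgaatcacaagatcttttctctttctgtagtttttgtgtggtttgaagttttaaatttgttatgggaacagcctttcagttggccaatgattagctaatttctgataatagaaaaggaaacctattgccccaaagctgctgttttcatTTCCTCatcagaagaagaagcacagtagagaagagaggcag
Nox4 promoter: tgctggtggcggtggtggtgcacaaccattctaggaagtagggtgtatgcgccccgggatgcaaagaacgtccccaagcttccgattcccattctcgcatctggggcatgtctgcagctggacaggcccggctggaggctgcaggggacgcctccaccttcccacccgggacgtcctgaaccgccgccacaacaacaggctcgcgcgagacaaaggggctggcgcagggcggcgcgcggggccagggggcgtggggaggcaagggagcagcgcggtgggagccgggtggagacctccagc

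Libraries held between 19495310 and 23976469 counts, with a median of 21824170, so that 3 counts, the limit that a count of 0 allows, lay far below the lowest count of any of the 9 genes, 13 for Arg1. Levels are given in CPM, counts relative to the library total on the scale of the unit's name, with TMM factors between libraries. Differences come from edgeR's quasi-likelihood test over all 18702 genes, and calling a gene required a fold change of 1.5 or more and a Benjamini-Hochberg adjusted p under 0.1. Transcripts of other tissues stood apart in some libraries. For 14 epididymis markers flox vehicle replicates 1, 3 and 4 had sums of 4545, 11736 and 1472 CPM, flox MTX replicate 1 had 484 CPM and the others at most 23.5 CPM, and the sum of 8 testis germ cell markers was 195 to 566 CPM in the flox vehicle libraries and at most 11.3 CPM elsewhere. The adipose label was met in all 12 libraries, in which 10 adipocyte markers summed to between 10125 and 48401 CPM.

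Under vehicle, 7 of the 9 genes were higher in KO than in flox mice and none was lower. The oxidase genes of the set moved together: Cybb, Cyba, Ncf1, Ncf4 and Rac2 rose by 2.32 to 2.73 on the log2 scale, and Nox4 and Arg1 rose as well. Nos2 and Sod3 were not called. Of all genes tested 31.7% were called in this comparison (13.9% as higher in KO mice), and the median log2 fold change was -0.06, against a median of 2.56 over the 9 genes.

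**Figure D1:**
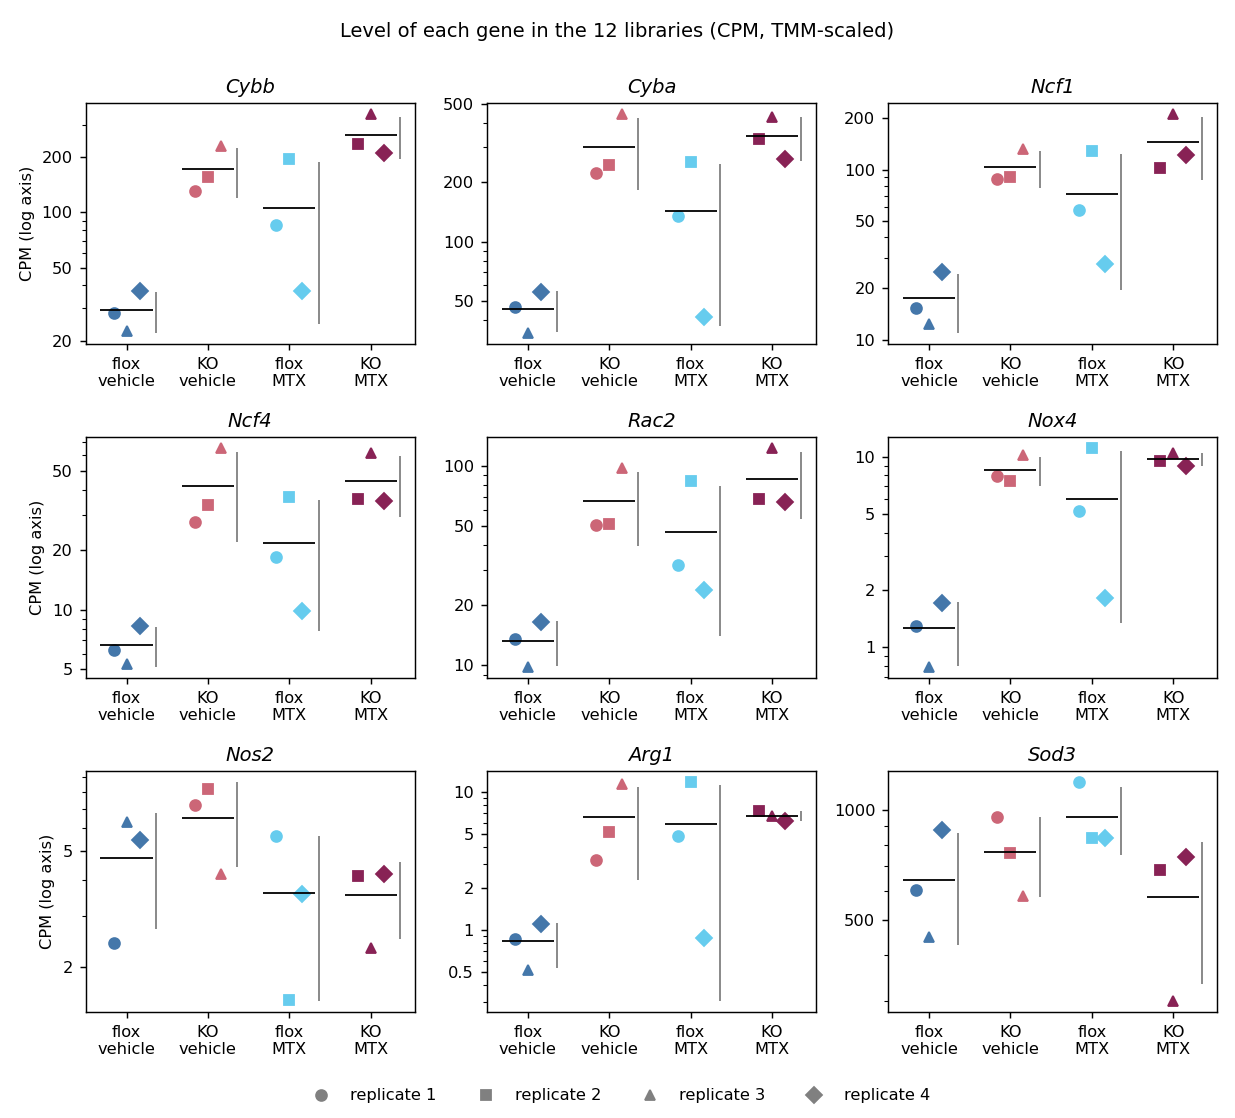
Levels of the 9 genes in CPM (log axes) in each of the 12 libraries, with the mean as a black bar and the SD over 3 mice as a grey line; the symbol shows the replicate number in the label. Cybb, Cyba, Ncf1, Ncf4, Rac2, Nox4 and Arg1 are low in all 3 flox vehicle libraries and spread widely over the flox MTX libraries, whereas Nos2 and Sod3 overlap between the vehicle groups.

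Cybb (ENSMUSG00000015340, GRCm38 chromosome X, 9435252 to 9487771) encodes the subunit that carries the electrons. Flox vehicle replicates 1, 3 and 4 held 28.1, 22.5 and 37.2 CPM of it, and KO vehicle replicates 1, 2 and 3 held 130, 156 and 230 CPM. The lowest KO library was therefore well above the highest flox library, with means of 29.3 ± 7.42 and 172 ± 51.9 CPM (SD, n = 3 mice each). The log2 fold change was 2.56 with a standard error of 0.50 (adjusted p = 0.00484, edgeR). An exact permutation test of 3 mice against 3, two-sided, gave 0.1, the smallest p that this design allows, and so it did for each of the 7 genes.

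Cyba (ENSMUSG00000006519, chromosome 8, 122424776 to 122432930) encodes the partner without which the catalytic subunit is not stable. Its levels were 46.8, 34.3 and 55.7 CPM in the flox mice and 224, 244 and 441 CPM in the KO mice. The groups were again apart, and KO vehicle replicate 3 was the highest, as it was for Cybb. The log2 fold change was 2.73 with a standard error of 0.54 (adjusted p = 0.00488, edgeR).

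Ncf1 (ENSMUSG00000015950, chromosome 5, 134220053 to 134229625) encodes the organiser that carries the other cytosolic subunits to the membrane. It was at 15.3, 12.3 and 25.1 CPM in flox and at 87.9, 90.0 and 132 CPM in KO mice, a log2 fold change of 2.56 (SE 0.51, adjusted p = 0.00508, edgeR). Of its exons 408 bases are shared with Gtf2ird2 on the opposite strand. Since the strand setting of the counting is not stated, it is not known whether Ncf1 gained or lost reads there. Ncf4 (ENSMUSG00000071715, chromosome 15, 78244801 to 78262580), whose product binds membrane phosphoinositides and prolongs the activity on phagosomes, rose from 6.24, 5.34 and 8.30 CPM to 27.5, 33.7 and 65.1 CPM, a log2 fold change of 2.67 (SE 0.49, adjusted p = 0.00402, edgeR). Neither gene overlapped between the groups.

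Rac2 (ENSMUSG00000033220, chromosome 15, 78559167 to 78572783) is the GTPase of blood cells that switches the oxidase on. Its levels were 13.5, 9.78 and 16.6 CPM in flox and 50.6, 51.3 and 97.2 CPM in KO mice, with a log2 fold change of 2.32 (SE 0.48, adjusted p = 0.00560, edgeR). The broadly expressed relative Rac1 moved far less, with a log2 fold change of 0.44 (SE 0.12) that passed the p limit (adjusted p = 0.0197, edgeR) but not the limit of 1.5-fold.

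Nox4 (ENSMUSG00000030562, chromosome 7, 87246096 to 87398710) does not belong to the phagocyte enzyme and is usually linked to fibroblasts, vessels and fat cells. Its levels were 1.30, 0.79 and 1.71 CPM in flox and 7.90, 7.49 and 10.2 CPM in KO mice, from 20 to 37 counts in the former and 157 to 218 in the latter. The groups did not overlap, and the log2 fold change of 2.75 (SE 0.54, adjusted p = 0.00474, edgeR) was of the same size as that of Cybb. Arg1 (ENSMUSG00000019987, chromosome 10, 24915221 to 24927484) rose from 0.867, 0.511 and 1.11 CPM to 3.22, 5.12 and 11.5 CPM. Its log2 fold change of 2.99 had the widest error of the 9 genes (SE 0.78, adjusted p = 0.0147, edgeR), and its lowest library held 13 counts.

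Nos2 (ENSMUSG00000020826, chromosome 11, 78920787 to 78960254) did not follow. It was at 2.43, 6.29 and 5.49 CPM in flox and at 7.20, 8.21 and 4.17 CPM in KO mice, and the groups overlapped. The log2 fold change was 0.46 with a standard error of 0.49 (adjusted p = 0.510, edgeR). Sod3 (ENSMUSG00000072941, chromosome 5, 52363791 to 52371418), at 603, 448 and 880 CPM in flox and 955, 762 and 580 CPM in KO mice, overlapped too, with a log2 fold change of 0.25 (SE 0.36, adjusted p = 0.635, edgeR). Across the 9 genes, 7 were higher in KO mice without overlap between the groups, against 22.8% of all genes tested. The 7 calls held in every alternative tried, among them 12 fits with 1 library omitted in each. None of these alternatives took away the epididymis and testis transcripts of the flox vehicle libraries.

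Macrophage markers rose with the oxidase genes. All 17 of 17 were called higher in KO than in flox mice under vehicle, and their summed level ran from 836 to 1566 CPM in the flox and from 6374 to 11408 CPM in the KO libraries. None was at 0 in any library. Fibroblast markers, 6 of 6 called higher, summed to 1565 to 3181 CPM in flox and 6483 to 10787 CPM in KO mice, and 6 of 7 endothelium markers were called higher (319 to 448 CPM against 670 to 997 CPM). Neutrophils also carry the oxidase, and the 10 neutrophil markers did not move as one. S100a8 was at 2.60, 9.55 and 13.6 CPM in flox and at 35.5, 18.3 and 19.7 CPM in KO mice (log2 fold change 1.51, SE 0.63, adjusted p = 0.0932, edgeR). It was the 1 marker called higher, without overlap, and 2 of the 7 markers tested were called lower. Only 2 of these 7 had a positive log2 fold change, and the median of the 7 was -2.33. Elane, Camp, Ltf and Retnlg were lower in KO mice without overlap, Retnlg with at most 27 counts. Ly6g had at most 4 counts in any library and was at 0 in 5 of them. The part of neutrophils in the difference was not tested. The neutrophil list (10 genes, 214.5 to 323 CPM in flox and 19.7 to 37.6 CPM in KO mice) was dominated in the flox vehicle libraries by Ltf, lactoferrin, at 200 to 311 CPM, and that gene is not limited to neutrophils. In whole tissue, fewer cells of a type and less RNA per cell cannot be told apart.

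**Figure D2:**
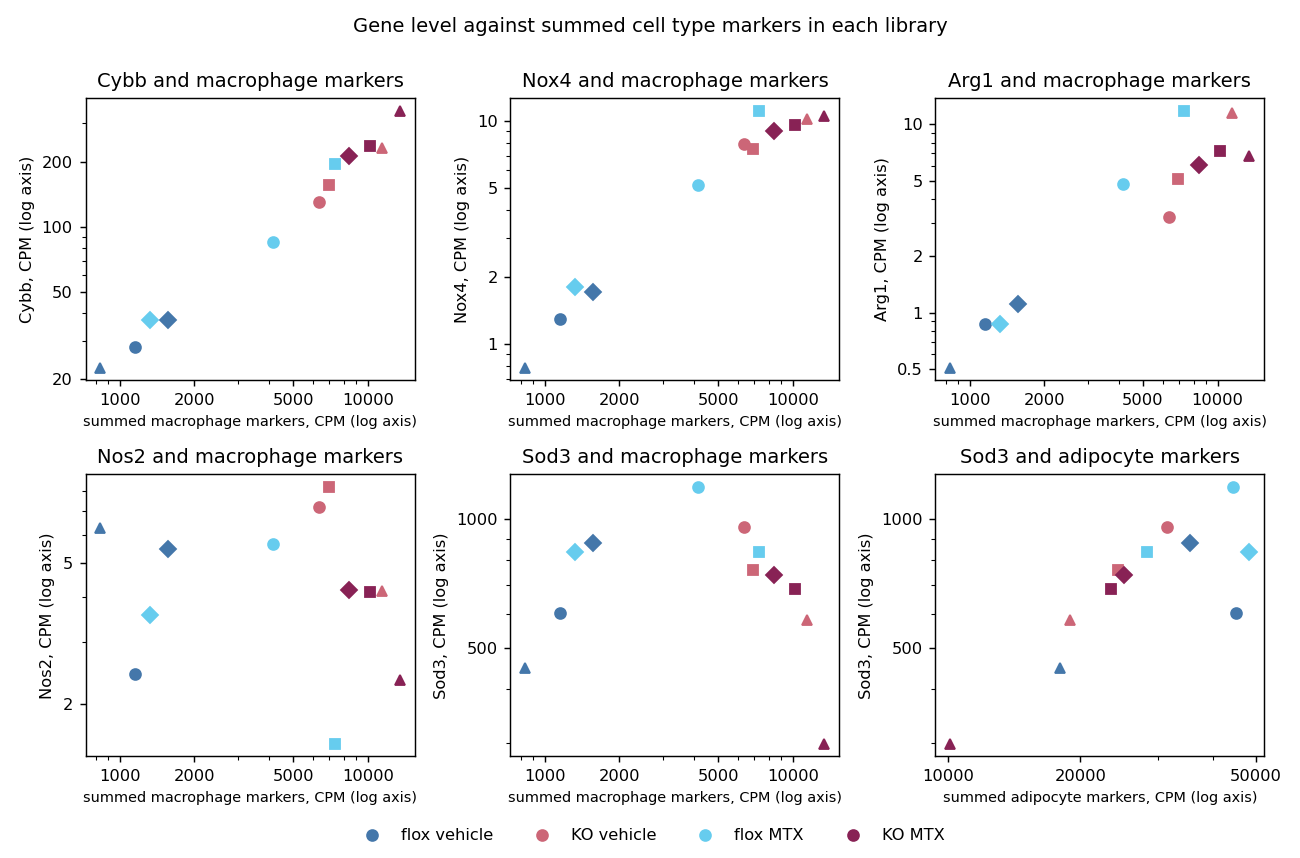
Levels of Cybb, Nox4, Arg1, Nos2 and Sod3 in each library against the summed CPM of 17 macrophage markers, and Sod3 against 10 adipocyte markers in the last panel (log axes, colour for the group, symbol for the replicate number). Cybb lies close to a line over the 12 libraries, at 20.2 to 28.0 CPM per 1000 CPM of macrophage markers, and Nos2 does not.

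The oxidase genes were next set against the macrophage markers within each library. Per 1000 CPM of macrophage markers, Cybb ranged only from 20.2 to 28.0 CPM over the 12 libraries (1.39-fold), although its level ranged 15.2-fold. Cyba ranged from 31.3 to 41.0 CPM per 1000 (1.31-fold, against 12.9-fold for the level). Under vehicle the ratios of Cybb (23.8 to 26.9 in flox, 20.2 to 22.4 in KO mice) and Rac2 (10.6 to 11.7 in flox, 7.38 to 8.52 in KO mice) were lower in KO mice without overlap, while their levels were higher. The ratios of Nox4 (0.784 to 1.51 CPM), Ncf4 (3.54 to 7.37 CPM), Ncf1 (9.99 to 21.1 CPM) and Rac2 (6.68 to 17.9 CPM) varied 1.93-fold, 2.08-fold, 2.11-fold and 2.68-fold. The highest ratios of Ncf1, Ncf4 and Rac2 were all in flox MTX replicate 4.

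The ratio of Nox4 thus varied no more than those of the cytosolic subunits Ncf1 and Ncf4. Arg1 ranged from 0.503 to 1.60 CPM per 1000 CPM of macrophage markers (3.18-fold, against 23.0-fold for the level). The ratio of Nos2 varied more than its level: the level ranged 5.32-fold and the ratio 43.2-fold, from 0.174 CPM per 1000 in a KO MTX library to 7.52 CPM in a flox vehicle library. The ratio of Nos2 was 2.10 to 7.52 in flox vehicle and 0.365 to 1.18 in KO vehicle libraries, while its levels overlapped. That of Sod3 was 522 to 562 in flox vehicle and 50.9 to 150 in KO vehicle libraries. A gene whose level stays the same has a lower ratio wherever the macrophage markers are higher, so these lower ratios add nothing to the levels. Sod3 ranged from 22.3 to 630 CPM per 1000 of macrophage markers (28.3-fold) but only from 13.4 to 31.3 CPM per 1000 CPM of adipocyte markers (2.34-fold). These ratios are descriptions without a test, and all share the library and its composition.

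Under MTX the genotypes differed less clearly. None of the 9 genes was called, as was none of the 18702 genes (0% of the table), for which the smallest adjusted p was 0.104. At an unadjusted p below 0.05 the test found 3 of the 9 genes, all higher in KO mice, against 24.5% of all genes (11.5% higher), and DESeq2 called 2, Cybb and Cyba. That count fell from 3 to 1 when replicate numbers entered as a block and to 0 with the 6 libraries alone, and was 6 without a filter on low counts. It ran from 0 (without flox MTX replicate 1 or KO MTX replicate 3) to 6 (without flox MTX replicate 2) with 1 library left out.

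Cybb stood at 84.9, 196 and 37.3 CPM in flox MTX replicates 1, 2 and 4 and at 237, 342 and 212 CPM in KO MTX replicates 2, 3 and 4. All KO libraries were above all flox libraries, and the log2 fold change was 1.31 (SE 0.48, adjusted p = 0.141, edgeR). Cyba, at 135, 253 and 41.8 CPM against 332, 430 and 263 CPM, had a log2 fold change of 1.25 (SE 0.51, adjusted p = 0.171, edgeR) and did not overlap either. Only these 2 genes were higher without overlap, where 14.7% of all genes were.

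The remaining oxidase genes overlapped between the MTX groups. Ncf1 was at 57.8, 129 and 28.0 CPM in flox and 102, 211 and 123 CPM in KO mice (log2 fold change 1.02, adjusted p = 0.223, edgeR). Ncf4 was at 18.4, 37.0 and 9.80 CPM against 36.2, 62.0 and 35.2 CPM (1.03, adjusted p = 0.197, edgeR), and Rac2 at 31.9, 83.5 and 23.8 CPM against 68.2, 122 and 66.1 CPM (0.88, adjusted p = 0.256, edgeR). In each of these 3 genes flox MTX replicate 2 reached into the range of the KO mice.

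Nox4 was at 5.19, 11.1 and 1.81 CPM in the flox MTX libraries and at 9.56, 10.5 and 8.99 CPM in the KO MTX libraries. Its highest value was in a flox mouse, and the log2 fold change was 0.68 (SE 0.49, adjusted p = 0.413, edgeR). Arg1 was at 4.81, 11.8 and 0.874 CPM against 7.26, 6.75 and 6.11 CPM (0.20, SE 0.70, adjusted p = 0.886, edgeR), spread over the flox mice and narrow in the KO mice. Nos2, at 5.66, 1.54 and 3.56 CPM against 4.13, 2.34 and 4.19 CPM, had a log2 fold change of -0.014 (SE 0.50, adjusted p = 0.992, edgeR).

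Sod3 was the one gene of the set with lower values in KO mice under MTX without overlap. It was at 1187, 837 and 838 CPM in flox MTX and at 686, 299 and 741 CPM in KO MTX libraries, a log2 fold change of -0.73 (SE 0.36) that was not called (adjusted p = 0.236, edgeR), and 12.1% of all genes were lower without overlap. None of 10 adipocyte markers was called, as was no gene of the table. At an unadjusted p below 0.05 (edgeR) there were 8 of 10, all lower in KO mice, against 24.5% of all genes in either direction. The median log2 fold change of the 10 was -1.25. Adipocyte markers stood at 28382 to 48401 CPM in these flox and at 10125 to 25066 CPM in these KO libraries. KO MTX replicate 3, the lowest for Sod3, was also the lowest for these markers. Their part in the values of Sod3 was not tested.

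The count of 0 depended on the test, on the filter and on single libraries. With all 12 libraries DESeq2 called 2769 genes of the table, and edgeR called 875 when unfiltered and 1315 when each library had to hold 10 counts or more. Neither of these edgeR settings called any of the 9 genes. Without flox MTX replicate 2, Cybb (log2 fold change 2.11, adjusted p = 0.0277), Cyba (1.95, 0.0338), Ncf1 (1.76, 0.0321), Ncf4 (1.65, 0.0366), Rac2 (1.62, 0.0301) and Nox4 (1.46, 0.0488) were called higher in KO mice by edgeR, as were 4063 genes of the table. Of the 17 macrophage markers 13 passed an unadjusted p of 0.05 in the comparison with all libraries, all of them higher in KO mice.

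Within flox mice, MTX was accompanied by higher levels of the same 7 genes, Cybb, Cyba, Ncf1, Ncf4, Rac2, Nox4 and Arg1. Of all genes tested 24.2% were called here (8.08% as higher), and the median over the 9 genes was 1.81 against 0.05 over all genes. When libraries were scaled by their totals alone, the median of all genes moved by -0.20 and the split of all calls from 1512 higher and 3017 lower to 767 higher and 3603 lower, and the 7 genes were called higher with that scaling too. This comparison uses the same flox vehicle libraries as the comparison of genotypes under vehicle, so the lists are not independent of each other. These libraries all held epididymis and testis transcripts, whose part in the 7 calls was not tested.

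The log2 fold changes under MTX in flox mice were 1.86 for Cybb (SE 0.49, adjusted p = 0.0258), 1.65 for Cyba (SE 0.52, adjusted p = 0.0476) and 2.03 for Ncf1 (SE 0.50, adjusted p = 0.0198), all from edgeR. They were 1.72 for Ncf4 (SE 0.47, adjusted p = 0.0301), 1.81 for Rac2 (SE 0.47, adjusted p = 0.0242), 2.26 for Nox4 (SE 0.53, adjusted p = 0.0159) and 2.82 for Arg1 (SE 0.77, adjusted p = 0.0293). Nos2 had -0.40 (SE 0.49, adjusted p = 0.595) and Sod3 0.57 (SE 0.36, adjusted p = 0.292).

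**Figure D3:**
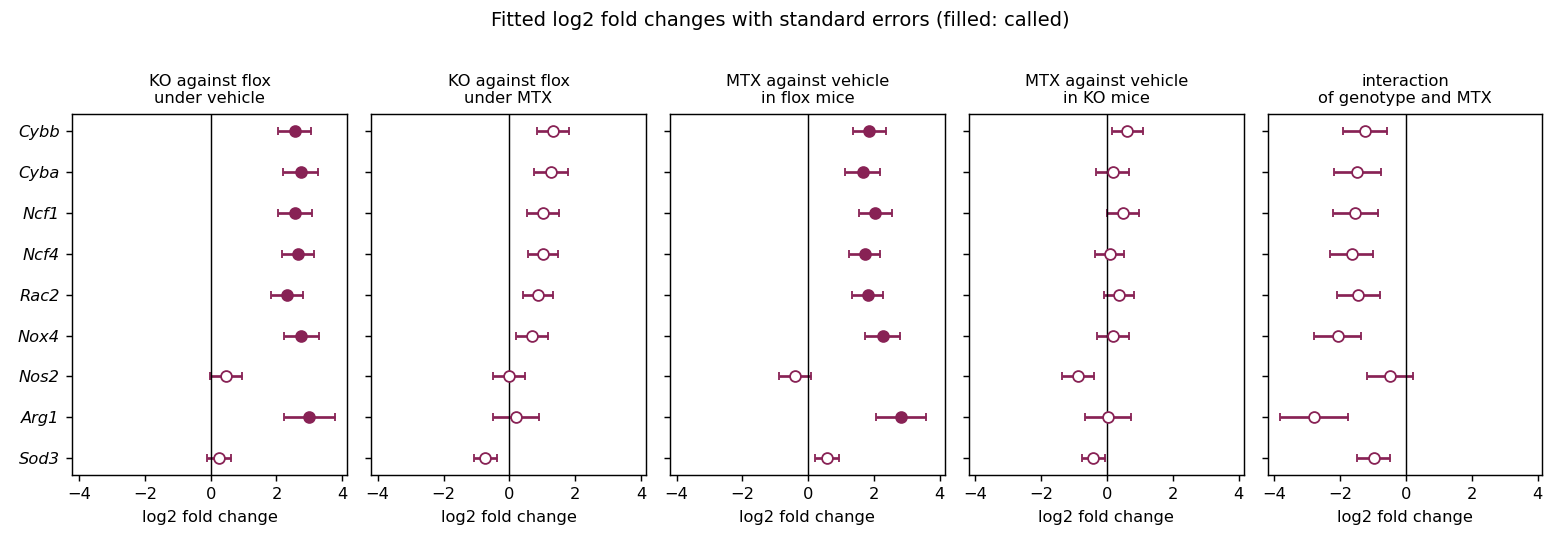
Fitted log2 fold changes of the 9 genes (points) with standard errors (bars) in the 4 comparisons and for the interaction, which is the change with MTX in KO mice minus that in flox mice; filled points passed both limits. Filled points are seen for 7 genes in KO against flox mice under vehicle and for 7 genes in MTX against vehicle in flox mice, and for none elsewhere.

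The 3 flox MTX mice were far from alike. Replicate 2 reached or passed the range of the KO vehicle mice for all 5 oxidase genes, for Nox4 and for Arg1, with 6.68 times the flox vehicle mean of Cybb. Replicate 1 was between the 2 vehicle groups for the oxidase genes and Nox4, with 2.90 times that mean, and replicate 4 was close to the flox vehicle mice, with 1.27 times. The flox groups did not overlap for Cybb, Ncf1, Ncf4, Rac2 and Nox4 (10.9% of all genes were higher without overlap), in Cybb by the narrow margin of 37.26 against 37.22 CPM, and they overlapped for Cyba and Arg1.

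The order of the 3 mice was that of their macrophage markers, which summed to 4144, 7340 and 1330 CPM in replicates 1, 2 and 4, and 16 of 17 of these markers were called higher with MTX in flox mice. The sum of replicate 4 lay within the 836 to 1566 CPM of the flox vehicle libraries. The direction of these RNA markers is opposite to the staining in the paper. It reported less Mac2-stained macrophage area in eWAT of flox mice with MTX, and no such effect in KO mice. Staining measures protein in sections, and the reason for the difference was not tested. Markers of other cells were called higher too, 5 of 6 for mesothelium, 5 of 8 for lymphocytes and 4 of 6 for fibroblasts. So were 4 of the 7 neutrophil markers tested, with 1 called lower. Of all genes tested 8.08% were called higher. Most macrophage, fibroblast and neutrophil markers overlapped between the flox groups, and most mesothelium markers did not. No endothelium or adipocyte marker was called, and 2 of 5 smooth muscle markers were called lower. Replicate 2 also held the highest level of Mpo, myeloperoxidase, at 5.99 CPM (at most 0.314 CPM elsewhere) and of Ngp at 10.9 CPM, both granule genes of immature neutrophils. Its sum of 8 lymphocyte markers, 227 CPM, was the highest too. Its sum of 10 neutrophil markers was not, at 89.7 CPM against 113 CPM in replicate 1 and 214.5 to 323 CPM in the flox vehicle libraries. Ltf was lower in flox MTX than in flox vehicle libraries without overlap. Ly6g had 4 counts in flox MTX replicate 2. The part of these cells in the difference was not tested.

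Several of these calls were lost when a single flox library was left out. Flox vehicle replicate 3 had the most epididymis transcripts. It also had the lowest macrophage marker sum of any library (836 CPM) and the lowest level of any library for each gene called here. The part of each in the lost calls was not tested. Without this library, the changes of Cybb (1.70, adjusted p = 0.110), Cyba (1.48, 0.172), Ncf4 (1.58, 0.121), Rac2 (1.63, 0.106) and Arg1 (2.56, 0.121) no longer passed in edgeR, and 2 genes, Ncf1 and Nox4, remained called. The call of Cyba was lost as well when flox vehicle replicate 1 was left out (adjusted p = 0.109), at a log2 fold change of 1.67. Leaving out flox MTX replicate 2 also ended the call of Cyba (0.97, adjusted p = 0.151) and lowered Cybb to 1.07, Ncf1 to 1.30, Ncf4 to 1.11, Rac2 to 1.08 and Arg1 to 1.81. With the 6 libraries of the comparison alone 3 genes were called, and 4 with the replicate number as a block.

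In KO mice none of the 9 genes was called between MTX and vehicle, and 0% of all genes were. None of the 9 had an unadjusted p below 0.05, against 7.98% of all genes, and DESeq2 called none of them either. The log2 fold changes of the 5 oxidase genes ran from 0.08 for Ncf4 to 0.61 for Cybb (SE 0.48, adjusted p = 0.806, edgeR). Nox4 had 0.18 (SE 0.49), Arg1 0.02 (SE 0.69), Sod3 -0.41 (SE 0.36) and Nos2 -0.88 (SE 0.49, adjusted p = 0.707, edgeR). All 9 genes overlapped between the KO groups, where 20.7% of all genes did not overlap in either direction.

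The difference between genotypes in the change with MTX was tested directly as an interaction. All 9 estimates were negative, that is, lower in KO mice, from -0.48 for Nos2 (SE 0.70) to -2.80 for Arg1 (SE 1.03, adjusted p = 0.244), and none was called, while 1% of all genes were. For Nox4 it was -2.08 (SE 0.71, adjusted p = 0.216), and for the 5 oxidase genes it ran from -1.64 (Ncf4, SE 0.65, adjusted p = 0.272) to -1.24 (Cybb, SE 0.67, adjusted p = 0.409), all from edgeR. At an unadjusted p below 0.05 there were 5 of the 9 genes, Ncf1, Ncf4, Rac2, Nox4 and Arg1, against 15% of all genes (5.45% negative). These 5 became 1 when replicate numbers entered as a block, 2 with scaling by library totals, 3 when each library had to hold 10 counts or more and 8 when unfiltered, and 1 to 7 with 1 library left out. DESeq2 called 2 of them, Nox4 (-2.06, adjusted p = 0.0779) and Arg1 (-2.78, adjusted p = 0.0920). A different response to MTX between flox and KO mice was thus not shown for these genes by edgeR.

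**Figure D4:**
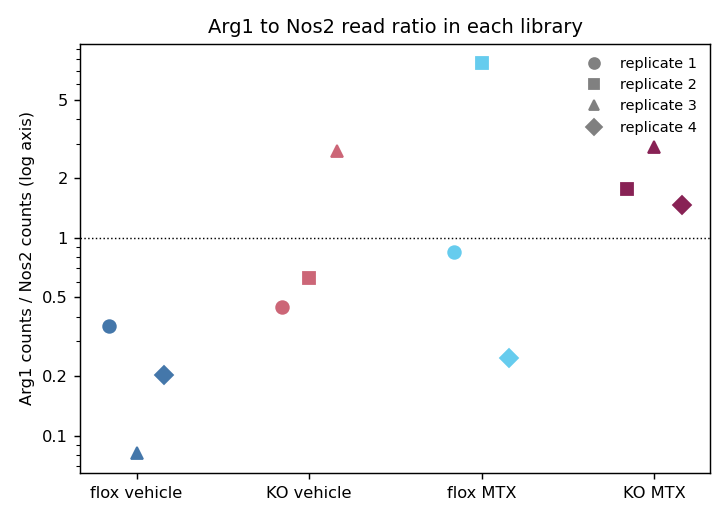
Ratio of Arg1 counts to Nos2 counts in each library (log axis; the dotted line marks equal counts, the symbol the replicate number). All 3 flox vehicle libraries lie below 0.4 and all 3 KO MTX libraries above 1.

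Because Nos2 and Arg1 draw on the same amino acid, their counts were set against each other in each library. The ratio of Arg1 to Nos2 counts was 0.357, 0.0813 and 0.202 in flox vehicle replicates 1, 3 and 4, and 0.448, 0.624 and 2.75 in KO vehicle replicates 1, 2 and 3. It was 0.850, 7.62 and 0.246 in flox MTX replicates 1, 2 and 4, and 1.76, 2.89 and 1.46 in KO MTX replicates 2, 3 and 4. Every flox vehicle library thus held more Nos2 than Arg1 reads, and every KO MTX library more Arg1 than Nos2 reads. The ratio rests on 13 to 259 counts of Arg1 and 34 to 194 counts of Nos2, and no test was made of it.

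Genes were compared per length of merged exons, a scale that depends on the annotation. Cyba and Sod3 were the most abundant of the set on it, with means over the 12 libraries of 200.5 and 197 CPM per kilobase. Cybb (24.6), Ncf1 (23.1), Rac2 (17.0) and Ncf4 (14.2) followed, and Arg1 (2.24), Nos2 (1.04) and Nox4 (0.753) were the lowest on this scale. Among the middle 4 the ranges over libraries overlapped widely, from 3.88 to 58.9 CPM per kilobase for Cybb and from 2.65 to 32.2 for Ncf4. On this scale Cyba was 6.26 to 10.7 times Cybb in each library although their products pair in the enzyme, and Cybb was 23.9 to 47.4 times Nox4. The merged exons of Nox4 span 8471 bases and its longest complete coding transcript 3753. These lengths are 5808 and 4752 for Cybb and 4412 and 4192 for Nos2. The order of Nox4 and Nos2 thus depends on the length used, while Nox4 stays far below Cybb with either length.

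Genes with the most similar pattern were found by Pearson's r of log2-CPM over the 12 libraries, as a description. For Cybb they were Syk (r = 0.998), Vav1 and Fyb (both 0.997), and for Cyba Rab7b, Ctss (both 0.998) and Tyrobp (0.997). Ncf1 was most like Ly86, Coro1a and Ms4a6c (0.992 to 0.993), Ncf4 like Emp3, Fxyd5 and Slfn2 (0.993 to 0.994), and Rac2 like Cd37, Coro1a and Rassf2 (0.993 to 0.994). Most of these genes are known from leukocytes.

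Nox4 was most like Ptpn18 (0.992), C1qa (0.992) and C1qb (0.990), the C1q genes being macrophage transcripts, and Arg1 was most like Ptpn18 (0.977), Efemp2 (0.974) and Gm26541 (0.973). Nos2 had no close companion of this kind, with 4930578C19Rik (0.920), Prdm16 (0.918) and Zfp979 (0.908) at the top, and Prdm16 is a regulator of thermogenic fat cells. Sod3 was most like Cd59a (0.967), Klhl13 (0.965) and Fcor (0.952). Within the set, r was between 0.962 and 0.988 among the 5 oxidase genes, from 0.967 to 0.981 between these and Nox4, and -0.288 to -0.126 between these and Nos2. The 12 points share 4 groups and differ in tissue composition, and no p is given for these values.

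Around the set, 61 genes of 3 fixed lists were followed, of which 57 passed the filter on low counts. Under vehicle 13 of the 57 were called between genotypes, 6 higher and 7 lower in KO mice, against 31.7% of all genes. Nox3, Noxa1, Duoxa2 and Mpo did not pass that filter. In flox mice MTX was accompanied by calls for 10 of the 57, against 24.2% of all genes, with 4 higher and 6 lower. Under other settings 1 of 9 called was higher with scaling by library totals, 0 of 5 with the replicate number as a block and 0 of 4 with the 6 libraries alone. No gene of these lists was called in the other comparisons.

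Of 21 genes of nitric oxide and arginine handling, 3 were higher and 3 lower in KO than in flox mice under vehicle. The largest rises were in Nostrin, which traffics the endothelial synthase, with a log2 fold change of 2.25 (SE 0.40, adjusted p = 0.00384, edgeR), and in Gch1, which makes the cofactor tetrahydrobiopterin, with 1.47 (SE 0.33, adjusted p = 0.00791). With MTX in flox mice Gch1 was called too (0.85, adjusted p = 0.0927), but the groups overlapped (2.56 to 3.46 CPM with vehicle, 2.87 to 8.72 CPM with MTX), and the call was lost with the replicate number as a block and with the 6 libraries alone. The neuronal synthase Nos1 was lower in KO mice (-1.20, SE 0.44, adjusted p = 0.0642), at 3.99, 9.55 and 4.24 CPM in flox and 4.23, 1.82 and 1.73 CPM in KO mice, and the groups overlapped. The endothelial synthase Nos3 was far more abundant than Nos2 per length, at 16.2 ± 4.13 CPM per kilobase in flox vehicle mice where Nos2 had 1.07 ± 0.462 (SD, n = 3 mice), and had a log2 fold change of -0.16 (SE 0.52, adjusted p = 0.847, edgeR).

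Arg2, the mitochondrial arginase, moved opposite to Arg1. Flox vehicle replicates 1, 3 and 4 had 5.85, 14.6 and 4.15 CPM and KO vehicle replicates 1, 2 and 3 had 1.46, 0.931 and 0.187 CPM, a log2 fold change of -3.25 (SE 0.75, adjusted p = 0.00889, edgeR). With MTX in flox mice it was lower as well (-4.05, SE 0.80, adjusted p = 0.00847). The flox vehicle libraries had Arg2 in the order of their epididymis markers (4545, 11736 and 1472 CPM), and the part of these transcripts in its change was not tested.

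Of 24 genes that remove superoxide and peroxide, 2 were higher and 4 lower in KO mice under vehicle, and 2 were higher and 4 lower with MTX in flox mice. Hmox1, the haem oxygenase that is abundant in macrophages, rose by 2.04 (SE 0.49, adjusted p = 0.0100) between genotypes and by 1.35 (SE 0.48, adjusted p = 0.0707) with MTX in flox mice, in edgeR. The flox groups overlapped for Hmox1, and the call with MTX was lost in the same 2 settings as that of Gch1. The quinone reductase Nqo1 had -3.22 (SE 0.55, adjusted p = 0.00349) and -2.99 (adjusted p = 0.00644), and the secreted glutathione peroxidase Gpx3 -2.95 (SE 0.56, adjusted p = 0.00444) and -2.46 (adjusted p = 0.0132). In the flox vehicle libraries 1, 3 and 4 Gpx3 stood at 2142, 5091 and 815 CPM and Nqo1 at 31.5, 66.8 and 13.0 CPM, again in the order of the epididymis markers, and the part of these transcripts was not tested. The other dismutases were not called: Sod1 had a log2 fold change of -0.16 (SE 0.23, adjusted p = 0.632, edgeR) and Sod2 of 0.10 (SE 0.40, adjusted p = 0.878, edgeR) between genotypes under vehicle.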

How the data were processed

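RNA of eWAT from 12 mice (3 in each of 4 groups) was sequenced. The authors trimmed reads with Trimmomatic 0.36, aligned them to GRCm38 with STAR 2.5.2b and counted reads on Ensembl genes by featureCounts (Subread 1.5.2), per the labels and methods. The deposited values are raw read counts. The labels give polyA RNA, the methods depletion of ribosomal RNA. Strand setting and the handling of reads with several positions are not given in the sources used here. Symbols matched 99.3% of 49315 rows, and rows without one held 0.0688% of the counts.

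The counts were fitted in R 4.3.3 with edgeR 4.0.16 (TMM, factors 0.822 to 1.08; filterByExpr by group; 1 coefficient per group over the 12 libraries, 8 residual degrees of freedom; quasi-likelihood F-test; Benjamini-Hochberg over 18702 genes). Standard errors are the log2 fold change divided by the root of F. A call needed an adjusted p under 0.1 and a 1.5-fold change. This is one reading of the limit in the methods, which used DESeq2. DESeq2 1.42.0 was an alternative here. The procedure was run on simulated counts that had the same dispersion for every gene and no transcripts of other tissues. This checks the code and not its behaviour on these data. Coordinates and exon lengths are from GENCODE M21. All 9 genes are named, with Rac1, Nos1, Nos3, Arg2, Sod1 and Sod2 and, per comparison, the called list genes with the 3 largest rises and falls. Marker genes of other cells named here (S100a8, Ly6g, Ltf, Mpo, Ngp, Elane, Camp, Retnlg) were picked with their values in view. The 9 genes, lists and tests were chosen with earlier results of these data known. One item of the rule is not reported here.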

Additional observations from a re-analysis of the deposited data

How the results depend on the processing

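Between genotypes under vehicle the 7 calls, and the absence of a call for Nos2 and Sod3, held in all 19 alternatives, with adjusted p up to 0.0768 (Arg1). The other comparisons depended on the settings, and the cause was not tested. Precision is limited by 3 mice per group and, for Arg1, by as few as 13 counts. All 3 flox vehicle libraries, the reference for these calls, held epididymis and testis transcripts, and no alternative took these away. The part of these transcripts in the 7 calls was not tested.

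Between genotypes under MTX, DESeq2 called 2769 genes of the table, 2 of the 9 genes and 11 of the pathway lists. Without a filter on low counts 875 genes were called (3 of the lists), with at least 10 counts in every library 1315 (4 of the lists), and with the 6 libraries alone 4. For MTX in flox mice, at least 10 counts in every library gave 2158 genes (6 of the lists), and the 6 libraries alone gave 2167, with 3 of the 9 genes and 4 of the lists. For MTX in KO mice, DESeq2 called 281 genes, no filter 20 and the 6 libraries alone 3. For the interaction, DESeq2 called 1248 genes, 2 of the 9 and 4 of the lists, no filter gave 472 (2 of the lists) and at least 10 counts gave 1.

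Leaving out 1 library at a time gave, under MTX between genotypes, 0 to 4063 genes, 0 to 6 of the 9 and 0 to 15 of the lists, each highest without flox MTX replicate 2. For MTX in flox mice it gave 2216 to 5996 genes, 2 to 7 of the 9 and 3 to 17 of the lists, lowest without flox vehicle replicate 3 and, for genes and lists, highest without flox vehicle replicate 4. It gave 0 to 215 genes for MTX in KO mice (highest without KO vehicle replicate 3). For the interaction it gave 5 to 1371 genes, 0 to 1 of the 9 and 0 to 4 of the lists. Here genes and lists peaked with flox vehicle replicate 4 omitted, and omitting flox MTX replicate 4 added a call for Nox4 (adjusted p = 0.0975).

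Replicate numbers showed no clear pairing. Same-numbered libraries had a median residual correlation of 0.035 over 12 pairs (-0.27 to 0.25), against 0.011 over 42 others (-0.38 to 0.45). Ranges this wide cannot exclude pairing. With the replicate number as a block, MTX in flox mice gave 2769 genes, 4 of the 9 and 5 of the lists, and the interaction gave 0 genes (2309 at an unadjusted p below 0.05). The block left the other counts of calls within 1.5 times. Of the 9 genes, those at an unadjusted p below 0.05 went from 3 to 1 under MTX between genotypes and from 5 to 1 for the interaction.

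Reversed signs were limited to values that were not called. Nos2 under MTX between genotypes was 0.19 with scaling by library totals and 0.11 with the block, and -0.38 to 0.51 with 1 library left out. Arg1 with MTX in KO mice was -0.00047 with library size alone, -0.00061 with the 6 libraries alone and -0.31 to 0.69 with 1 left out. With 1 left out, Arg1 under MTX between genotypes ran from -0.30 to 1.22, Cyba and Ncf4 with MTX in KO mice from -0.026 to 0.55 and from -0.24 to 0.54, and the interaction of Nos2 from -0.85 to 0.024.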
